A study of Homo sapiens with 9 samples.

Results

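The proliferation genes described here were 44 genes of mitosis and DNA replication, read by 47 probes of an Illumina expression array in KYSE30, an established line of esophageal squamous cell carcinoma cells. The members were a list of 48 probe numbers with the gene of each; 1 further BIRC5 probe of that list was not analysed here. All 47 probes had a detection p under 0.01 on at least 1 of the 9 arrays, and 46 of them had it on all 9, out of 47317 probes on the array, 19006 detected on at least 1 array and 12202 detected on all 9. Of the members, 36 probes read 33 mitotic genes and 11 probes read 11 replication genes. The detection p is the scanner software's estimate of how often background alone would give a signal at least as strong.

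The study asked what overexpression of the microRNAs miR-32, miR-455, miR-181a and miR-181b, or knockdown of PI3K subunits, does to the transcriptome. The cells were transfected with miR-32, miR-455, miR-181a, miR-181b, siPIK3R1, siPIK3R3, a miRNA combination, a siRNA combination or a negative control, and RNA was taken on day 3. PIK3R1 and PIK3R3 encode regulatory subunits of phosphoinositide 3-kinase, the enzyme that passes growth factor signals on to AKT. Every group, the control included, had been treated with Lipofectamin2000, a lipid transfection reagent spelled as in the labels, and grown in RPMI-1640 with 10% FBS. The labels do not say which arm of each microRNA was used, what was mixed for each combination or at what dose.

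Each group was 1 sample on 1 array, so the agent, the transfection and the array cannot be told apart, and no difference has a replicate check or a p-value. The 8 differences from the control share 1 control array. Levels are log2 normalized intensities, and a difference is the level on a transfected array minus that on the control array, on the same log2 scale. A probe was called higher or lower at 2-fold, a log2 difference of 1. As a yardstick, the arrays most alike were those of miR-32 and miR-455, whose difference had a spread of 0.200 (SD over the probes detected on all arrays). That spread, the smallest of 36 pairs of arrays, is of single probes and does not measure the precision of a median. The files pair no probe with a gene beyond the member list, so knockdown of PIK3R1 and PIK3R3, the squamous markers of the line and the other genes of these pathways were not analysed here.

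Cells copy their DNA in S phase and divide it in mitosis. Replication starts when the CDC45-MCM-GINS helicase opens origins that MCM2 to MCM7 had marked, after which PCNA holds the polymerases to the template and FEN1 trims the joints, while TYMS and TK1 supply thymidylate. Mitosis is driven by CDK1 with its B-type cyclins and by the Aurora and Polo kinases, checked at the kinetochore by BUB1, TTK and MAD2L1, and ended when the anaphase-promoting complex with CDC20 and UBE2C destroys securin, the product of PTTG1, and cyclin B. The messages of the mitotic set peak in G2 and M phase, those of the replication set at the start of S phase, and their level in a culture is a common readout of cell division.

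After quantile normalization, the mitotic messages were lowest with the siRNA combination and next lowest with siPIK3R3, and highest with miR-181a. The median difference of the 36 mitotic probes from the control was -0.80 with the siRNA combination and -0.57 with siPIK3R3. It was 0.48 with miR-181a, 0.28 with miR-32 and 0.21 with miR-455. With miR-181b, siPIK3R1 and the miRNA combination it was -0.07, -0.13 and 0.06. The median over all probes compared lay between -0.03 and 0.01 on the 8 arrays. Quantile normalization, which gives every array the same distribution of levels, keeps these medians small. In RNA from a whole culture, fewer dividing cells and less of these messages in each cell cannot be told apart.

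In the direction of the differences the mitotic probes were more one-sided than the arrays as a whole, whose shares quantile normalization holds near even. The members were chosen with earlier results of these data known, so the counts describe this list only. With miR-181a, 36 of 36 mitotic probes lay above the control, where 51.4% of all probes compared did. The count was 33 of 36 with miR-32, against 47% of all probes, and 34 of 36 with miR-455, against 49.3%. With siPIK3R3, 33 of 36 lay below the control, where 53.4% of all probes did, and with the siRNA combination 32 of 36 did, where 50.7% of all probes did. The arrays of miR-181b and siPIK3R1 had 24 and 25 of 36 mitotic probes below the control, beside 48.6% and 50.7% of all probes. With the miRNA combination 19 lay above the control and 17 below, beside 50.5% of all probes above it.

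The replication median was -0.05 with the siRNA combination, -0.15 with siPIK3R3, 0.29 with the miRNA combination and between -0.08 and 0.07 with the other 5 agents. Scaling each array by its median in place of quantile normalization put the median difference of all probes from the control at values from -0.30 with siPIK3R1 to 0.26 with miR-32. Under that scaling the replication median changed sign with miR-32, miR-455 and siPIK3R1, and the mitotic median with the miRNA combination. The mitotic median was then highest with miR-32, at 0.57, with miR-181a at 0.52. It stayed lowest with the siRNA combination, at -1.20, and was -0.47 with both siPIK3R3 and siPIK3R1. The mitotic median less the replication median, in which a shift of the whole array cancels, was -0.76 with the siRNA combination and -0.42 with siPIK3R3, and 0.41 with miR-181a, 0.29 with miR-32 and 0.26 with miR-455. With miR-181b, siPIK3R1 and the miRNA combination it was 0.01, -0.19 and -0.23.

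**Figure D1:**
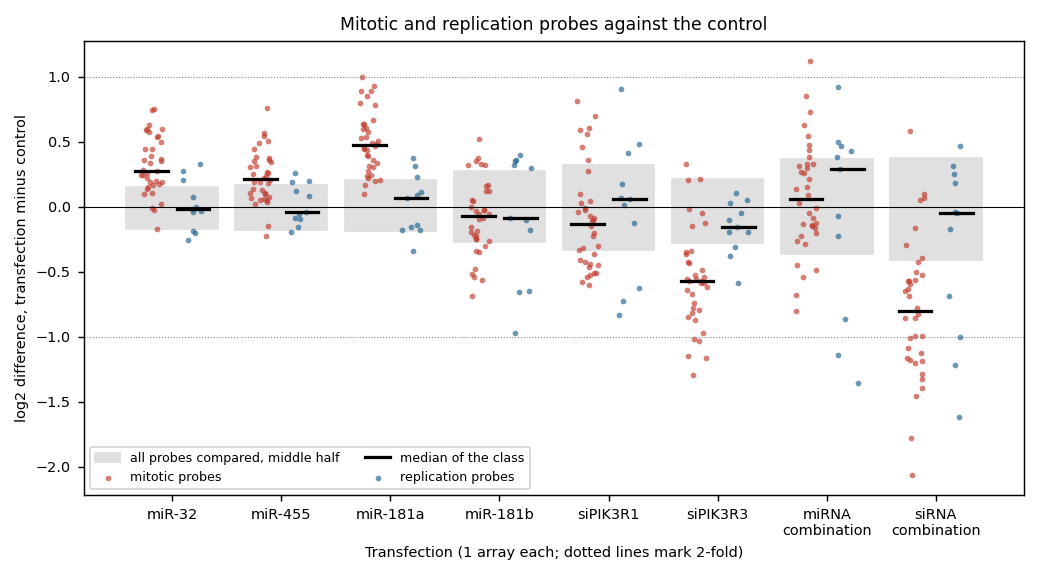
Log2 difference of each transfected array from the control array (vertical axis) for the 36 mitotic probes (red points) and the 11 replication probes (blue points), by transfection; bars are class medians, grey boxes hold the interquartile range of all probes compared, and dotted lines mark 2-fold. The mitotic points sit highest with miR-181a (median 0.48) and lowest with the siRNA combination (median -0.80). The replication points spread widely with miR-181b, siPIK3R1 and both combinations, from -1.62 to 0.47 with the siRNA combination.

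Across the 9 arrays the mitotic probes spanned 0.56 to 2.44 log2 units (median 1.48), the replication probes 0.43 to 1.85 (median 0.92), and all probes detected on every array had a median span of 0.90. The miR-181a array was the highest of the 9 for 28 of the 36 mitotic probes, 77.8% of them, as it was for 14.4% of all probes. The siRNA combination was the lowest for 26, 72.2% of them, where it was for 17.8% of all probes, and siPIK3R3 for 8, or 22.2%, near the 19.9% of all probes. For the replication probes the miRNA combination was the highest array for 6 of 11, or 54.5%, where it was for 13% of all probes.

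**Figure D2:**
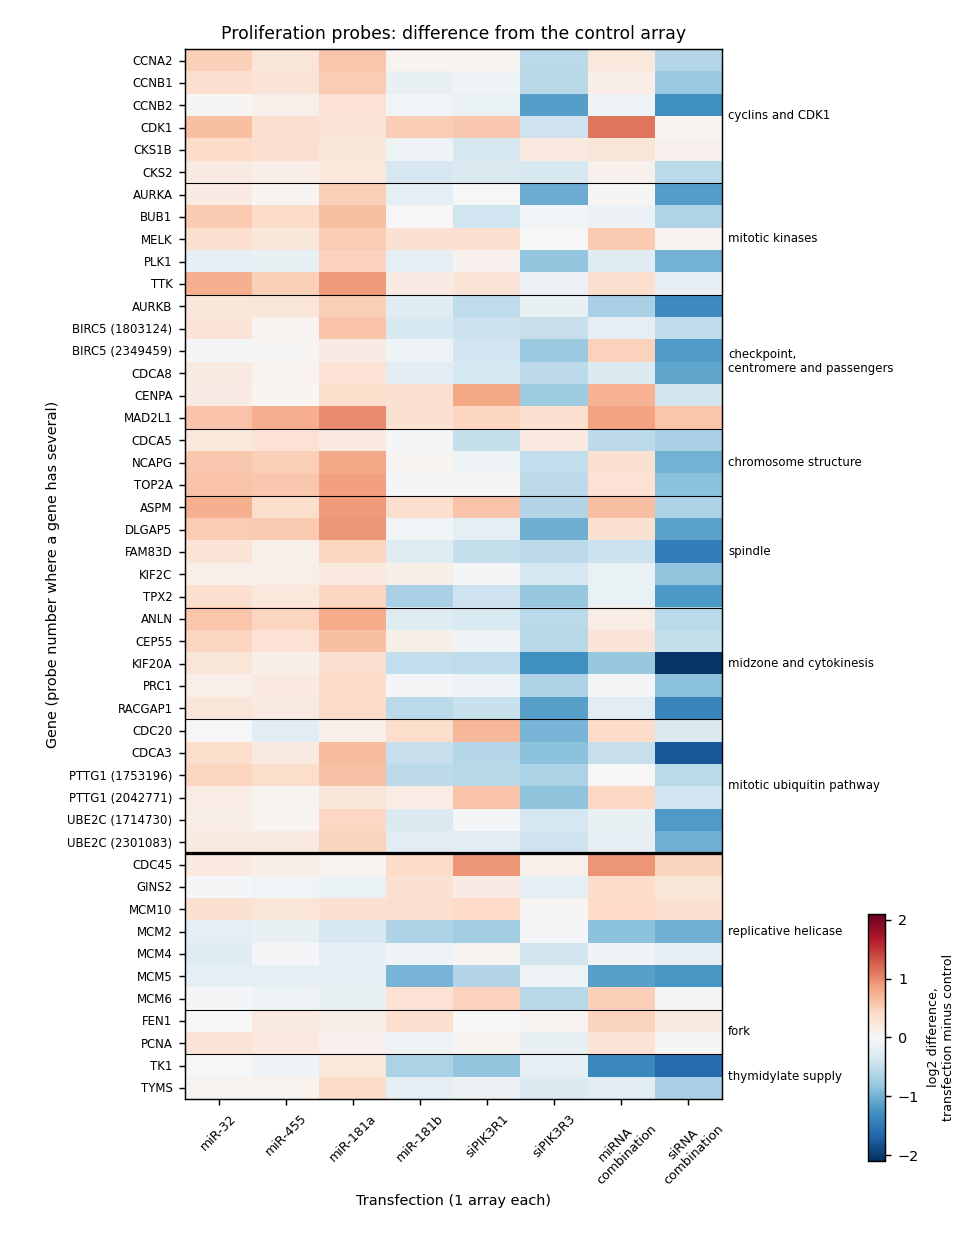
Log2 difference from the control (colour; red higher, blue lower) of the 47 probes, in rows by gene and role, for the 8 transfected arrays in columns. The columns of miR-32, miR-455 and miR-181a are mostly red above the thick line that parts the mitotic from the replication probes, the columns of siPIK3R3 and the siRNA combination are mostly blue there, and MCM2, MCM5 and TK1 are blue beside red CDC45, MCM6 and MCM10 with siPIK3R1 and the miRNA combination.

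Promoters of cell cycle genes are known for 3 kinds of site. Mitotic genes are known for a cell cycle homology region (CHR), the site of the MuvB-containing complexes, downstream of CCAAT boxes, the site of NF-Y, and early genes for E2F sites. Promoters of 26 of the 33 mitotic genes and 9 of the 11 replication genes were found in RefSeq (GRCh38.p14), as the 250 bases before and the 50 from each gene's start. On both strands, TTTGAA (the CHR core) and CCAAT were searched, and matches could overlap. An E2F core was TTCCCGC (the consensus) or any of the variants TTGGCGC and TTCGCGC and also TTGCCGC.

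The CHR core TTTGAA stood in 17 of the 26 mitotic promoters (65.4%), in 0 of the 9 replication promoters and in 15.4% of all 27305 promoters. CCAAT stood in 21 mitotic promoters (80.8%) and 5 replication promoters (55.6%), against 35.7% of all. An E2F core stood in 10 mitotic promoters (38.5%) and 5 replication promoters (55.6%), against 13.1% of all. TTTGAA together with CCAAT was found in 15 mitotic promoters (57.7%) and in 6.08% of all promoters. These are matches of letters, not sites of binding, and none of the 3 kinds was found in the windows of KIF2C, MELK, FEN1 and TK1. In a window chosen after the positions were seen, the 40 bases before the start, TTTGAA stood in 9 of 26 mitotic promoters (34.6%) and in 1.83% of all.

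As a description, mitotic genes with and without TTTGAA overlapped in their differences from the control on every array. Only these letters were searched for the CHR, so genes without TTTGAA are not shown to lack a CHR. With the siRNA combination the 17 mitotic genes with TTTGAA had a median difference of -0.65 and the 9 without it -0.69. With siPIK3R3 the medians were -0.59 with TTTGAA and -0.36 without it, and with the miRNA combination they were 0.27 and -0.12. With miR-181a both medians were 0.49.

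The promoters of 4 members with different letters and different behaviour are printed, with every match in capitals. KIF20A (chr5:138178862-138179161, plus strand), the mitotic gene lowest with the siRNA combination, has 2 CCAAT boxes, both read on the opposite strand, and no TTTGAA. CCNB2 (chr15:59104896-59105195, plus strand), called lower with both siPIK3R3 and the siRNA combination, has 4 CCAAT boxes and TTTGAA at bases -29 to -24 from the start. MCM2 (chr3:127598161-127598460, plus strand), low in both combinations, has overlapping E2F letters on both strands, 3 to 12 bases downstream of the start base. CDC45 (chr22:19479670-19479969, plus strand), which was above the control on all 8 arrays, has 4 CCAAT boxes.
KIF20A: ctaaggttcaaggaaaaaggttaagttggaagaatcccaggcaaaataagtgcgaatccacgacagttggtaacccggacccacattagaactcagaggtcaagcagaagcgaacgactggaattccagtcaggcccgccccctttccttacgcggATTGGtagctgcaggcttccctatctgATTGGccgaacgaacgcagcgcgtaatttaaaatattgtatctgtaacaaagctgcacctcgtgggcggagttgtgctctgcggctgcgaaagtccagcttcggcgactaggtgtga
CCNB2: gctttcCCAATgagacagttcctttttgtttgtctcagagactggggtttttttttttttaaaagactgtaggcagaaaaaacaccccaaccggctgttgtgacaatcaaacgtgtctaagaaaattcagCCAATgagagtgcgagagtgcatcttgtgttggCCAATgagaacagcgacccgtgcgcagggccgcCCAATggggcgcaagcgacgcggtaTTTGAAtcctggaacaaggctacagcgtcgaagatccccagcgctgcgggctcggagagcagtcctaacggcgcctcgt
MCM2: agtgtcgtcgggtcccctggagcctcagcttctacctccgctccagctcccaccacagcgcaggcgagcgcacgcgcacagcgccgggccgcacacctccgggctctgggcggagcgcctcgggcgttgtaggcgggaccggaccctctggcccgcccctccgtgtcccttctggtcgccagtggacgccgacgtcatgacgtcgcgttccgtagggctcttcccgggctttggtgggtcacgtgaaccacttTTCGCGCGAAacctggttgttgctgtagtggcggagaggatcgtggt
CDC45: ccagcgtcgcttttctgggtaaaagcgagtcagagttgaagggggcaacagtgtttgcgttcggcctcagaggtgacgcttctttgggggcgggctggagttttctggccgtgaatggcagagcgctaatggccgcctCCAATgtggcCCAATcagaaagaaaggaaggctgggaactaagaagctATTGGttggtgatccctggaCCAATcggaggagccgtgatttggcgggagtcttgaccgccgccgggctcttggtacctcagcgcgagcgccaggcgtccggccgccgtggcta

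**Figure D3:**
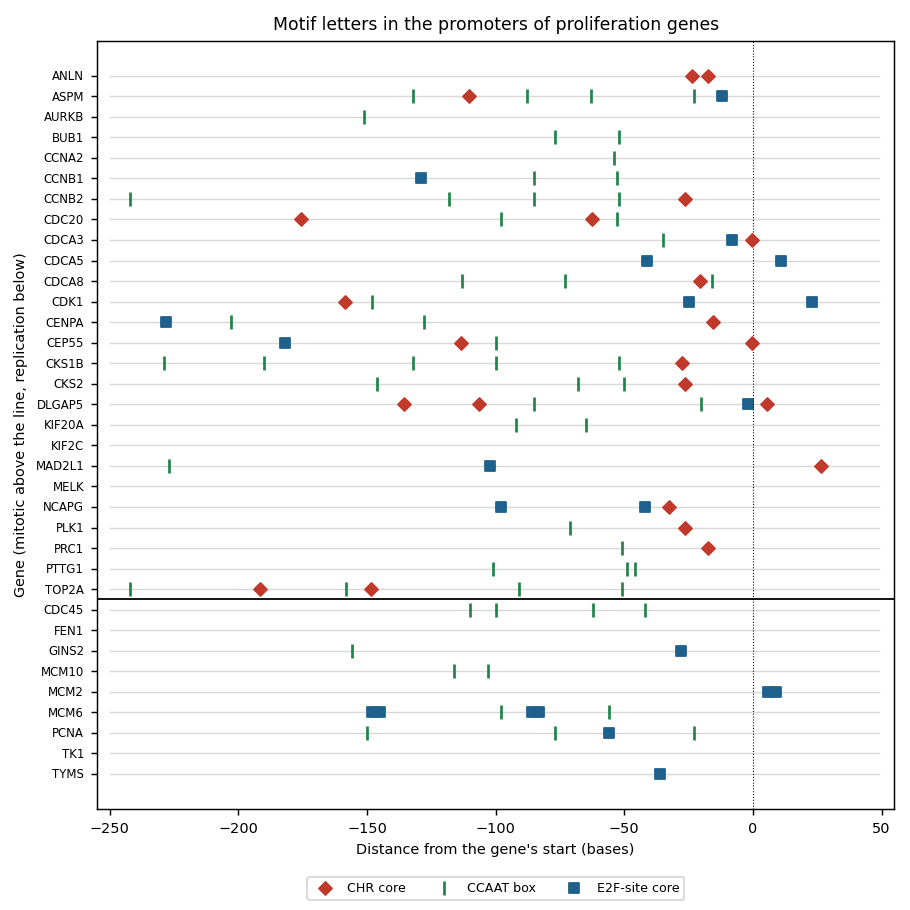
Positions of the CHR core (red diamonds), CCAAT boxes (green bars) and E2F cores (blue squares) in bases from the gene's start, for the 26 mitotic promoters above the line and the 9 replication promoters below it. Red diamonds appear in 17 mitotic and 0 replication promoters, often just before the start and downstream of green bars.

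With the siRNA combination 13 mitotic and 3 replication probes were called lower, 16 of 47 in all, where 7.01% of all probes compared were, and 0 were called higher, where 6.53% of all probes were. With siPIK3R3 5 mitotic probes and 0 replication probes were called lower, where 1.61% of all probes were. Median scaling gave 26 calls with the siRNA combination, where it put the median of all probes at -0.27. With siPIK3R3 the calls numbered 3 under median scaling or without background correction, and 8 when the median of 8 arrays replaced the control. The 5 of siPIK3R3, KIF20A, CCNB2, RACGAP1, AURKA and DLGAP5, were also called lower with the siRNA combination, and both comparisons use the same control array. The call of UBE2C with the siRNA combination was just inside 2-fold for 1 of its probes, at -1.01, and PLK1 and NCAPG were just outside it, at -0.997 and -0.991.

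The midzone and cytokinesis genes held the member furthest from the control. KIF20A (ILMN_1695658), a kinesin that carries the chromosomal passengers to the spindle midzone, had log2 levels of 11.25 with miR-32, 11.12 with miR-455, 11.33 with miR-181a, 10.47 with miR-181b, 10.46 with siPIK3R1, 9.70 with siPIK3R3, 10.19 with the miRNA combination and 8.93 with the siRNA combination, against 10.99 in the control. It was 4.17-fold lower with the siRNA combination and 2.45-fold lower with siPIK3R3 than in the control. KIF20A was also low, short of 2-fold, with the miRNA combination, siPIK3R1 and miR-181b, and above the control only with miR-32, miR-455 and miR-181a. RACGAP1, a subunit of the centralspindlin complex, differed from the control by -1.39 with the siRNA combination and -1.14 with siPIK3R3. All 5 genes of the group, with ANLN, CEP55 and PRC1, lay below the control with both of these agents and above it with miR-181a, where their differences were 0.34 to 0.78.

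CDCA3, which triggers mitotic entry through degradation of WEE1, had the widest range of all members, 2.44 log2 units. CDCA3 (ILMN_1737728) had log2 levels of 10.13 with miR-32, 9.96 with miR-455, 10.43 with miR-181a, 9.29 with miR-181b, 9.16 with siPIK3R1, 8.90 with siPIK3R3, 9.28 with the miRNA combination and 7.99 with the siRNA combination, against 9.76 in the control. It was lowest with the siRNA combination, 3.42-fold lower than in the control, and highest with miR-181a. UBE2C, the ubiquitin-conjugating enzyme of the anaphase-promoting complex, had log2 levels with probe ILMN_1714730 of 12.49 with miR-32, 12.41 with miR-455, 12.79 with miR-181a, 12.05 with miR-181b, 12.33 with siPIK3R1, 12.01 with siPIK3R3, 12.20 with the miRNA combination and 11.17 with the siRNA combination, against 12.35 in the control. Its probe ILMN_2301083 had log2 levels of 12.75 with miR-32, 12.75 with miR-455, 13.02 with miR-181a, 12.34 with miR-181b, 12.33 with siPIK3R1, 12.12 with siPIK3R3, 12.39 with the miRNA combination and 11.55 with the siRNA combination, against 12.56 in the control. Both UBE2C probes were lowest with the siRNA combination, where they were called lower, and highest with miR-181a.

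CDC20, the activator of the anaphase-promoting complex, had log2 levels of 12.57 with miR-32, 12.36 with miR-455, 12.68 with miR-181a, 12.95 with miR-181b, 13.28 with siPIK3R1, 11.61 with siPIK3R3, 12.96 with the miRNA combination and 12.28 with the siRNA combination, against 12.58 in the control. It was highest with siPIK3R1 and lowest with siPIK3R3, a different order from that of CDCA3. PTTG1 encodes securin, which keeps sister chromatids joined. Its probe ILMN_2042771 had log2 levels of 12.08 with miR-32, 11.98 with miR-455, 12.17 with miR-181a, 12.08 with miR-181b, 12.53 with siPIK3R1, 11.08 with siPIK3R3, 12.36 with the miRNA combination and 11.50 with the siRNA combination, against 11.93 in the control. Its probe ILMN_1753196 had log2 levels of 11.45 with miR-32, 11.37 with miR-455, 11.62 with miR-181a, 10.47 with miR-181b, 10.44 with siPIK3R1, 10.34 with siPIK3R3, 11.003 with the miRNA combination and 10.44 with the siRNA combination, against 11.01 in the control. The PTTG1 probes disagreed with siPIK3R1, where the differences from the control were 0.61 and -0.57, and with miR-181b, where they were 0.16 and -0.54. Both were below the control with siPIK3R3 and with the siRNA combination.

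The chromosomal passenger complex, which corrects the attachment of chromosomes, was read by AURKB, CDCA8 and BIRC5. AURKB, its kinase, had log2 levels of 10.50 with miR-32, 10.52 with miR-455, 10.75 with miR-181a, 9.99 with miR-181b, 9.71 with siPIK3R1, 10.11 with siPIK3R3, 9.58 with the miRNA combination and 8.93 with the siRNA combination, against 10.25 in the control. AURKB was called lower with the siRNA combination, at -1.32, and lay at -0.15 with siPIK3R3. BIRC5, survivin, had with its bright probe (ILMN_2349459) log2 levels of 10.49 with miR-32, 10.53 with miR-455, 10.68 with miR-181a, 10.42 with miR-181b, 10.10 with siPIK3R1, 9.73 with siPIK3R3, 10.99 with the miRNA combination and 9.33 with the siRNA combination, against 10.51 in the control. That probe was called lower with the siRNA combination, at -1.19, and was highest with the miRNA combination. The dim BIRC5 probe (ILMN_1803124) was at or near background on several arrays.

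The dim BIRC5 probe missed detection with siPIK3R1, siPIK3R3 and the siRNA combination, with detection p of 0.108, 0.0117 and 0.517. On those 3 arrays its log2 level was raised to the lowest detected level, so the differences from the control of -0.45, -0.48 and -0.53 are bounds and the true values lie at them or further down. Its log2 levels were 6.63 with miR-32, 6.41 with miR-455, 6.95 with miR-181a, 6.01 with miR-181b and 6.15 with the miRNA combination, against 6.35 in the control. CDCA8, borealin, differed from the control by -1.09 with the siRNA combination and was called lower there.

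The spindle genes were low with the siRNA combination without exception, by -0.65 (ASPM) to -1.46 (FAM83D), and 3 of 5 were called lower. FAM83D, which recruits casein kinase 1 to the spindle, had log2 levels of 11.35 with miR-32, 11.17 with miR-455, 11.53 with miR-181a, 10.82 with miR-181b, 10.56 with siPIK3R1, 10.52 with siPIK3R3, 10.62 with the miRNA combination and 9.61 with the siRNA combination, against 11.07 in the control. DLGAP5, a microtubule-stabilizing protein of the spindle, had log2 levels of 10.30 with miR-32, 10.31 with miR-455, 10.69 with miR-181a, 9.71 with miR-181b, 9.56 with siPIK3R1, 8.74 with siPIK3R3, 10.09 with the miRNA combination and 8.64 with the siRNA combination, against 9.76 in the control. FAM83D was set apart mainly by the siRNA combination, while DLGAP5 was about equally low with siPIK3R3 and the siRNA combination. TPX2, which activates Aurora A on the spindle, was called lower with the siRNA combination at -1.20, and KIF2C, a kinesin that takes microtubules apart, stood at -0.82.

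Of the 5 mitotic kinases read outside the passenger complex, AURKA was called lower with the siRNA combination, at -1.16, and with siPIK3R3, at -1.04. AURKA, the kinase of centrosomes and spindle poles, had log2 levels of 11.73 with miR-32, 11.63 with miR-455, 12.07 with miR-181a, 11.37 with miR-181b, 11.55 with siPIK3R1, 10.53 with siPIK3R3, 11.60 with the miRNA combination and 10.40 with the siRNA combination, against 11.56 in the control. PLK1, the Polo kinase of mitotic entry and exit, had log2 levels of 8.08 with miR-32, 8.10 with miR-455, 8.73 with miR-181a, 8.06 with miR-181b, 8.35 with siPIK3R1, 7.43 with siPIK3R3, 7.99 with the miRNA combination and 7.25 with the siRNA combination, against 8.25 in the control. BUB1, a checkpoint kinase of the kinetochore, had log2 levels of 9.88 with miR-32, 9.72 with miR-455, 9.97 with miR-181a, 9.33 with miR-181b, 8.91 with siPIK3R1, 9.29 with siPIK3R3, 9.21 with the miRNA combination and 8.71 with the siRNA combination, against 9.34 in the control. PLK1 followed the order of AURKA at the low end, whereas BUB1 was lowest with the siRNA combination and second lowest with siPIK3R1. MELK, a kinase of mitotic cells, had the narrowest range of the mitotic members, 0.56, with log2 levels of 10.62 with miR-32, 10.50 with miR-455, 10.80 with miR-181a, 10.58 with miR-181b, 10.62 with siPIK3R1, 10.25 with siPIK3R3, 10.81 with the miRNA combination and 10.33 with the siRNA combination, against 10.26 in the control. MELK was at its lowest with siPIK3R3 and in the control, which differed by 0.02.

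The B-type cyclins parted from their kinase, CDK1, on some arrays only. CCNB1, CCNB2 and CDK1 all lay below the control with siPIK3R3 and above it with miR-32, miR-455 and miR-181a. CCNB1, the main mitotic cyclin, had log2 levels of 9.91 with miR-32, 9.82 with miR-455, 10.08 with miR-181a, 9.40 with miR-181b, 9.47 with siPIK3R1, 8.97 with siPIK3R3, 9.69 with the miRNA combination and 8.77 with the siRNA combination, against 9.55 in the control. CCNB2, its relative, differed from the control by -1.29 with the siRNA combination and by -1.16 with siPIK3R3, and both calls are 2-fold or more. CDK1 (ILMN_1747911), the kinase that binds both, had log2 levels of 10.82 with miR-32, 10.55 with miR-455, 10.47 with miR-181a, 10.72 with miR-181b, 10.75 with siPIK3R1, 9.77 with siPIK3R3, 11.31 with the miRNA combination and 10.24 with the siRNA combination, against 10.19 in the control. CDK1 was above the control on 7 of the 8 transfected arrays (on 6 under median scaling, where the siRNA combination turned to -0.33). It was the only mitotic probe called higher than the control, with the miRNA combination, where it was 2.17-fold higher. That was 1 of 36 mitotic probes, 2.78%, under the 4.32% of all probes called higher there. Median scaling ended that call, at 0.951.

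CKS1B and CKS2 are small partners of cyclin-dependent kinases. CKS1B had log2 levels of 12.25 with miR-32, 12.20 with miR-455, 12.10 with miR-181a, 11.77 with miR-181b, 11.53 with siPIK3R1, 12.07 with siPIK3R3, 12.12 with the miRNA combination and 11.96 with the siRNA combination, against 11.86 in the control. CKS2 had log2 levels of 11.03 with miR-32, 10.98 with miR-455, 11.06 with miR-181a, 10.49 with miR-181b, 10.54 with siPIK3R1, 10.50 with siPIK3R3, 10.93 with the miRNA combination and 10.28 with the siRNA combination, against 10.84 in the control. CKS1B stayed within 0.39 of the control on every array, and with siPIK3R3 and the siRNA combination it lay slightly above the control, while CKS2 lay below it; median scaling put CKS1B below the control with the siRNA combination, at -0.31.

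MAD2L1 (ILMN_1777564), which holds back anaphase until chromosomes are attached, did not follow most of the other mitotic genes with the siRNA combination. Its log2 levels were 10.00 with miR-32, 10.16 with miR-455, 10.40 with miR-181a, 9.73 with miR-181b, 9.86 with siPIK3R1, 9.73 with siPIK3R3, 10.25 with the miRNA combination and 9.98 with the siRNA combination, against 9.40 in the control. MAD2L1 was above the control on all 8 arrays, and its difference of 0.58 with the siRNA combination was the highest of the 47 probes there. With miR-181a it was just short of 2-fold, at 0.999. Besides MAD2L1, CKS1B, MELK and CDK1 were the mitotic probes not below the control with the siRNA combination, at 0.10, 0.06 and 0.05, and of these 4 only MAD2L1 stayed above the control there under median scaling.

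The genes of chromosome structure were not called against the control with any agent. TOP2A, the topoisomerase that untangles sister chromatids, had log2 levels of 11.65 with miR-32, 11.62 with miR-455, 11.90 with miR-181a, 11.03 with miR-181b, 11.08 with siPIK3R1, 10.51 with siPIK3R3, 11.35 with the miRNA combination and 10.19 with the siRNA combination, against 11.05 in the control. TOP2A differed from the control by 0.85 with miR-181a and by -0.86 with the siRNA combination. NCAPG, a condensin subunit, differed by 0.80 and -0.99 on the same arrays. CDCA5, sororin, which protects cohesion, was above the control with siPIK3R3, at 0.21, where NCAPG and TOP2A were below it. Under median scaling all 3 passed 2-fold with the siRNA combination, at -1.25 for TOP2A, -1.38 for NCAPG and -1.09 for CDCA5.

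With the siRNA combination the mitotic probes were often lower than with either single siRNA. The siRNA combination lay below both siPIK3R1 and siPIK3R3 for 25 of the 35 mitotic probes detected on these arrays, 71.4%, where it did for 31% of all probes. The mitotic median of the siRNA combination was -0.19 from siPIK3R3, where the median of all probes was 0.02. From siPIK3R1 it was -0.78. For the replication probes this held for 4 of 11, 36.4%. The miRNA combination lay below all 4 single microRNAs for 11 of 36 mitotic probes, 30.6%, near the 32.1% of all probes, and above all 4 for 6 of 36, 16.7%, where 30.6% of all probes were. For the replication probes the miRNA combination was above all 4 for 6 of 11.

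Set against each other without the control, the siRNA combination was below the miRNA combination for 36 of 36 mitotic and 11 of 11 replication probes, where 51.2% of all probes were. The median difference was -0.83 for the mitotic and -0.26 for the replication probes. At 2-fold, 15 mitotic probes were lower with the siRNA combination, where 0.741% of all probes were, and 0 replication probes were. The lowest were BIRC5 (ILMN_2349459) at -1.66, DLGAP5 at -1.45, NCAPG at -1.31 and CDCA3 at -1.29, and the closest to 0 was MCM5, at -0.08. Median scaling kept the counts of 36 and 11, where 71.5% of all probes were then lower with the siRNA combination. Against the control, TK1, MCM2 and MCM5 lay low on both combination arrays.

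The single siRNAs also differed. In siPIK3R3 minus siPIK3R1 the median was -0.39 over 35 mitotic probes and -0.22 over 11 replication probes, and 31 and 7 of them were lower with siPIK3R3, where 50.6% of all probes were. These medians turned to 0.03 and 0.21 under median scaling, where the median of all probes was 0.37. At 2-fold, 6 mitotic probes were lower with siPIK3R3, where 6.06% of all probes were: CDC20, CENPA, PTTG1 (ILMN_2042771), ASPM, AURKA and CCNB2, at -1.67 to -1.01. MCM6 was the replication probe called lower, at -1.07. TK1, MCM2 and MCM5 went the other way, at 0.64, 0.68 and 0.52, as did CDCA5 and CKS1B, at 0.72 and 0.54. Under median scaling 16 of the 35 mitotic probes were lower with siPIK3R3, where 25.4% of all probes were. Of the mitotic probes 2, CDC20 and CENPA, were then called lower, and 1, CDCA5, was called higher. The MCM6 call was then lost, and TK1 and MCM2 were called higher, at 1.05 and 1.10.

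CENPA, the histone that marks centromeres, and ASPM, a protein of spindle poles, were high with siPIK3R1, at 0.82 and 0.59 from the control, and low with siPIK3R3, at -0.74 and -0.61. CDC20 and the PTTG1 probe ILMN_2042771 shared this order, at 0.70 and 0.61 with siPIK3R1 and -0.97 and -0.85 with siPIK3R3.

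**Figure D4:**
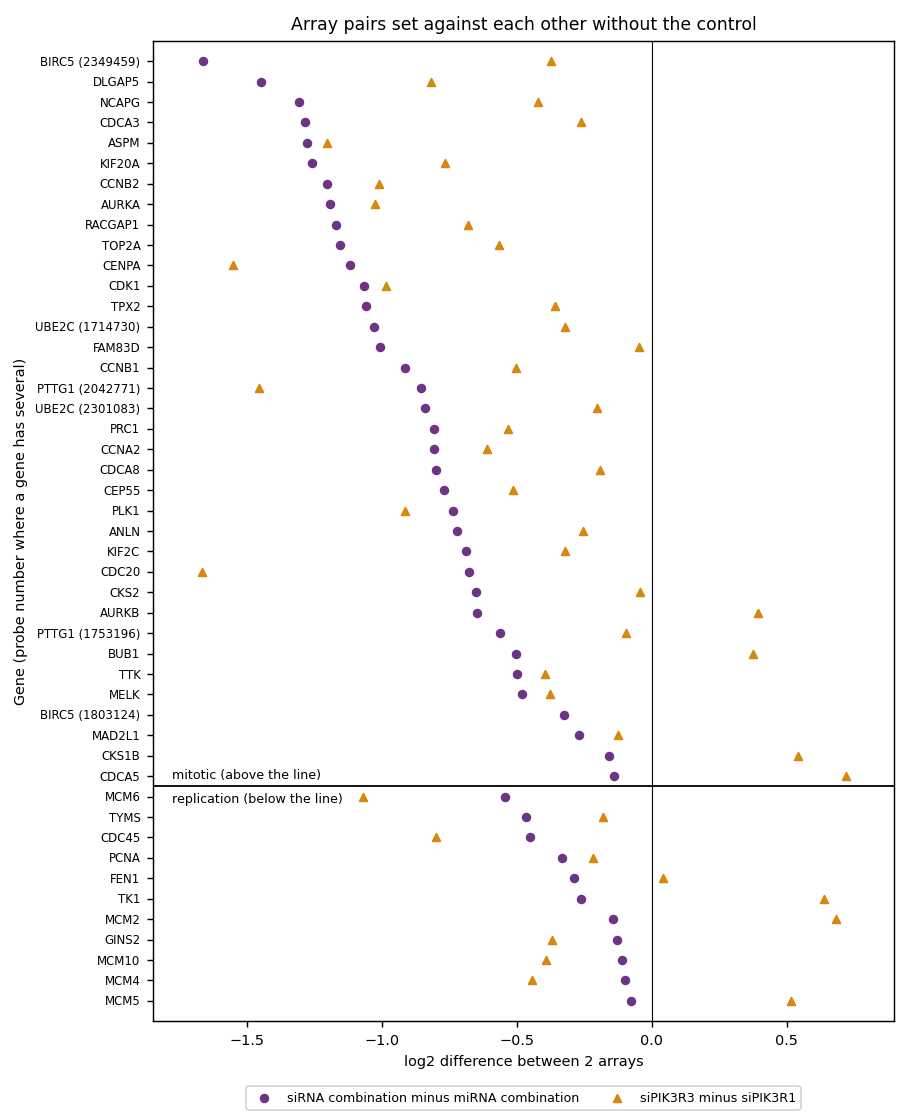
Log2 difference between arrays with the control left out, for the siRNA combination minus the miRNA combination (purple circles) and siPIK3R3 minus siPIK3R1 (orange triangles), by gene, mitotic above the line and replication below it. All circles lie left of 0, furthest for BIRC5 (ILMN_2349459) at -1.66, and the triangles run from -1.67 for CDC20 to 0.72 for CDCA5.

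The microRNAs miR-181a and miR-181b belong to 1 family. Their mature sequences in RefSeq (GRCh38.p14), from genes on chromosomes 1 and 9, share the seed, bases 2 to 8, shown in capitals because a seed is the part that pairs with target messages. The copies on chromosome 1 are at chr1:198859108-198859130 for miR-181a and chr1:198858925-198858947 for miR-181b, on the minus strand. The labels name no arm, and the 5′ arm is printed.
hsa-miR-181a-5p: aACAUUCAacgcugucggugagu
hsa-miR-181b-5p: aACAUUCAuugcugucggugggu

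The mitotic genes differed between these arrays although the seed is the same. In miR-181a minus miR-181b the median was 0.67 over the mitotic and -0.04 over the replication probes. With miR-181a 34 of 36 mitotic and 5 of 11 replication probes were higher than with miR-181b, where 51.7% of all probes were. At 2-fold, 4 mitotic probes were higher with miR-181a, where 2.01% of all probes were: PTTG1 (ILMN_1753196) at 1.15, CDCA3 at 1.14, TPX2 at 1.13 and ANLN, an actin-binding protein of the cleavage furrow, at 1.03. Median scaling gave 18 such mitotic probes and turned the replication median to 0.29, where the median of all probes was 0.30. CDC20 and CDK1 were the mitotic probes lower with miR-181a, at -0.27 and -0.25.

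Against the control no member was called with miR-181a, miR-181b, miR-32, miR-455 or siPIK3R1, where 0.813%, 3.52%, 0.669%, 0.783% and 4.85% of all probes were called either way. At 1.5-fold, 12 mitotic probes were higher with miR-181a, where 3.41% of all probes were, and 6 with miR-32, where 2.27% were. With miR-455 MAD2L1 alone was, at 0.76, where 2.52% of all probes were. The furthest with miR-181a were MAD2L1 at 0.999, DLGAP5 at 0.93, ASPM at 0.89 and TTK at 0.89. TTK, the kinase MPS1 of the spindle checkpoint, and ASPM were also the furthest with miR-32, at 0.75 each. The miR-32 and miR-455 arrays differed by medians of 0.09 for the mitotic and 0.02 for the replication probes.

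Among the replication genes, TK1, MCM2 and MCM5 were low on the same arrays; this grouping was noticed after the values were seen. TK1 (ILMN_1806037), which salvages thymidine, had log2 levels of 10.96 with miR-32, 10.87 with miR-455, 11.19 with miR-181a, 10.30 with miR-181b, 10.13 with siPIK3R1, 10.76 with siPIK3R3, 9.60 with the miRNA combination and 9.34 with the siRNA combination, against 10.96 in the control. MCM5 (ILMN_1815169), a subunit of the helicase ring, had log2 levels of 10.37 with miR-32, 10.36 with miR-455, 10.38 with miR-181a, 9.59 with miR-181b, 9.94 with siPIK3R1, 10.45 with siPIK3R3, 9.42 with the miRNA combination and 9.34 with the siRNA combination, against 10.56 in the control. MCM2 (ILMN_1681503), another subunit of that ring, had log2 levels of 10.47 with miR-32, 10.52 with miR-455, 10.34 with miR-181a, 10.03 with miR-181b, 9.95 with siPIK3R1, 10.63 with siPIK3R3, 9.82 with the miRNA combination and 9.67 with the siRNA combination, against 10.68 in the control. All 3 were low with miR-181b, siPIK3R1 and both combinations, and close to the control with siPIK3R3. TYMS was below the control on these 4 arrays too, at -0.18 with miR-181b, -0.13 with siPIK3R1, -0.22 with the miRNA combination and -0.69 with the siRNA combination. With siPIK3R3, however, TYMS lay at -0.31, lower than on the first 3 of these.

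TK1 was 3.07-fold lower with the siRNA combination and 2.56-fold lower with the miRNA combination than in the control. MCM5 was called lower on the same arrays, at -1.21 and -1.14, and MCM2 with the siRNA combination, at -1.01. With the miRNA combination TK1 and MCM5 were the members called lower, 4.26% of the 47 and under the 5.64% of all probes. These arrays were also the dimmest: the mean raw intensity was 361 with miR-181b, 343 with siPIK3R1, 270 with the miRNA combination and 223 with the siRNA combination, against 406 in the control. It was 418 to 468 with the other 3 microRNAs, and siPIK3R3 lay just under the control. The part of brightness in the result was not tested.

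The other helicase genes were higher on some of those arrays. CDC45 (ILMN_1670238), which joins the MCM ring to make the active helicase, had log2 levels of 10.46 with miR-32, 10.38 with miR-455, 10.32 with miR-181a, 10.66 with miR-181b, 11.16 with siPIK3R1, 10.36 with siPIK3R3, 11.18 with the miRNA combination and 10.73 with the siRNA combination, against 10.26 in the control. MCM6 had log2 levels of 11.14 with miR-32, 11.09 with miR-455, 11.02 with miR-181a, 11.48 with miR-181b, 11.66 with siPIK3R1, 10.59 with siPIK3R3, 11.68 with the miRNA combination and 11.14 with the siRNA combination, against 11.18 in the control. CDC45 and MCM6 shared their high points, with siPIK3R1 and the miRNA combination, and MCM6 was lowest with siPIK3R3, at -0.59 from the control. GINS2, the partner of CDC45 in the helicase, differed from the control by 0.39 with the miRNA combination, 0.32 with miR-181b and 0.25 with the siRNA combination, the last of which turned to -0.14 under median scaling. The CDC45 difference with the miRNA combination was 0.73 to 0.95 over the scalings tried, and that of TK1 was -1.52 to -1.27.

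MCM4 and MCM10 varied least among the replication members. MCM4 had log2 levels of 11.60 with miR-32, 11.81 with miR-455, 11.67 with miR-181a, 11.77 with miR-181b, 11.91 with siPIK3R1, 11.47 with siPIK3R3, 11.78 with the miRNA combination and 11.68 with the siRNA combination, against 11.85 in the control. MCM10, which helps to activate the helicase, had log2 levels of 9.11 with miR-32, 9.04 with miR-455, 9.10 with miR-181a, 9.14 with miR-181b, 9.20 with siPIK3R1, 8.81 with siPIK3R3, 9.20 with the miRNA combination and 9.09 with the siRNA combination, against 8.78 in the control. MCM10 was above the control on all 8 transfected arrays, by 0.03 to 0.43 (under median scaling it turned to -0.08 with the siRNA combination), and MCM4 stayed within 0.38 of it. Among the subunits of the MCM ring read here, MCM2, MCM4, MCM5 and MCM6, only MCM2 and MCM5 were called against the control. The member list held no probe of MCM3 or MCM7.

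At the fork, PCNA, the sliding clamp, had log2 levels of 11.13 with miR-32, 11.05 with miR-455, 10.94 with miR-181a, 10.75 with miR-181b, 10.91 with siPIK3R1, 10.70 with siPIK3R3, 11.14 with the miRNA combination and 10.81 with the siRNA combination, against 10.85 in the control. FEN1, the flap endonuclease, had log2 levels of 8.78 with miR-32, 8.98 with miR-455, 8.91 with miR-181a, 9.14 with miR-181b, 8.81 with siPIK3R1, 8.85 with siPIK3R3, 9.26 with the miRNA combination and 8.98 with the siRNA combination, against 8.79 in the control. TYMS, which makes thymidylate, had log2 levels of 11.75 with miR-32, 11.75 with miR-455, 12.05 with miR-181a, 11.49 with miR-181b, 11.54 with siPIK3R1, 11.36 with siPIK3R3, 11.45 with the miRNA combination and 10.98 with the siRNA combination, against 11.67 in the control. None of these was called against the control, though TYMS reached -1.11 with the siRNA combination under median scaling. TYMS was highest with miR-181a and lowest with the siRNA combination, as were most mitotic probes. PCNA and FEN1 spanned 0.45 and 0.48 over the 9 arrays, about the size of the smallest ranges among the members.

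**Figure D5:**
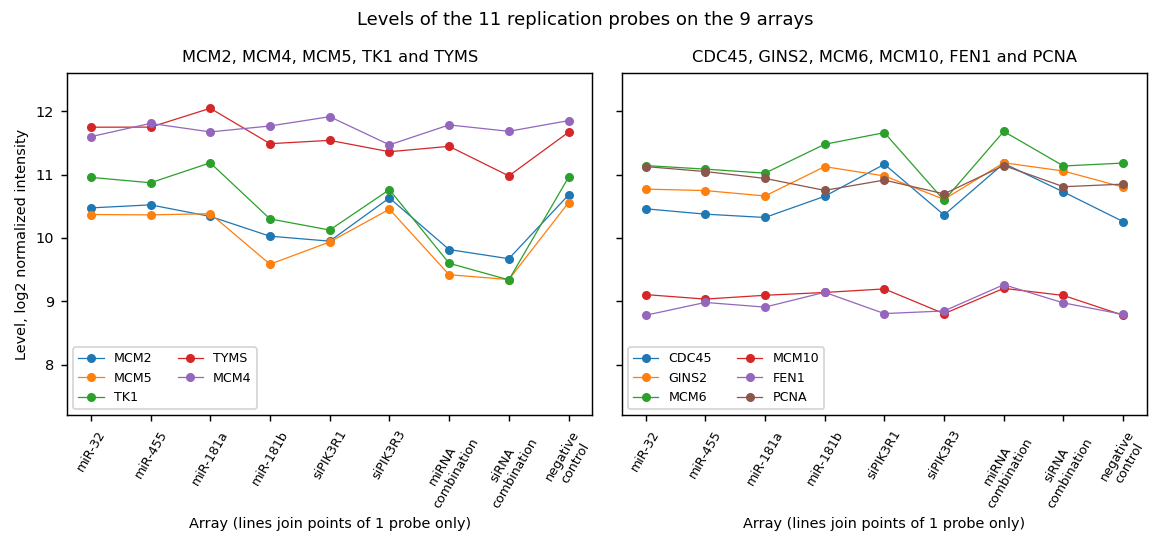
Log2 normalized intensity (vertical axis) of the 11 replication probes on the 9 arrays (horizontal axis, control last), with lines that only join the points of a probe. In the left panel TK1, MCM2 and MCM5 dip with miR-181b, siPIK3R1 and both combinations, TK1 to 9.34 with the siRNA combination; in the right panel CDC45 and MCM6 peak with siPIK3R1 and the miRNA combination, at 11.16 to 11.68.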

How the data were processed

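Per the file headers, the deposited raw table holds linear intensity values of every probe, and its headers record neither a correction for background nor a normalization. Beside each intensity the deposited table holds a detection p-value, per the file headers. A second deposited table holds the authors' processed intensity values, also linear, which follow each array's raw signal as a straight line and have a mean of 294 on every array. Array version and scanner software were not given in the sources used here. Per the labels, RNA was extracted with Trizol and biotin-labelled cRNA was made with an Ambion kit.

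Raw intensities of the 9 arrays were corrected for background, quantile normalized together and log2 transformed with neqc of limma 3.58.1 (R 4.3.3; offset 16), which infers the background from the detection p-values. Further steps used Python 3.11.15, numpy 2.4.6, pandas 2.3.3 and matplotlib 3.10.9. Comparisons of 2 arrays took the probes detected (p under 0.01) on either, and an undetected value was raised to the lowest detected level of its array. With 1 array a group, a rule of size (2-fold, or 1.5-fold) stood in for a test, and the number of arrays limits the precision. Only the comparison of 2 arrays was tested on simulated data, with planted changes larger than the 2-fold rule. Normalization, class medians and the motif search were not tested in this way.

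The members, their classes and all lists were chosen with earlier results of these data known. Values on all arrays were given for the 5 widest and 2 narrowest ranges of each class, for fixed examples of each role, and for each probe of genes with several; other members were named by role. With no table pairing probes with genes, the lists of other mitotic, replication, cell cycle, interferon, target and cell marker genes were not analysed here. Alternatives were median scaling, leaving out the background correction, an offset of 50, the authors' processed values, other detection rules, a median of 8 arrays in place of the control, normalization without the combination arrays, and 1.5-fold. The alternatives for pairs of arrays without the control were chosen after seeing the data.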

Additional observations from a re-analysis of the deposited data

How the results depend on the processing

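No paired analysis was possible because no groups share replicates, with 1 array each. Of 196 medians recomputed under the alternatives, 183 stayed within 0.200 of the reported value, and 13 moved further, all under median scaling. The sign changed in 12 of the 196, 7 under median scaling, 4 with the median of 8 arrays as the reference and 1 with the authors' processed values; the 5 outside median scaling were replication medians. Under median scaling the mitotic and replication medians from the control were 0.57 and 0.28 with miR-32, -0.36 and -0.39 with miR-181b, -0.47 and -0.29 with siPIK3R1, and -1.20 and -0.42 with the siRNA combination. In pairs without the control they were 0.997 and 0.29 for miR-181a minus miR-181b, and 0.0321 and 0.21, both changed in sign, for siPIK3R3 minus siPIK3R1, and the replication median was -0.49 for the siRNA minus the miRNA combination. The cause was not tested.

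Of 82 counts, 62 stayed within 1.5 times the reported one. Median scaling gave 1 call with miR-181a, 1 with miR-181b, 2 with miR-32, 2 with siPIK3R1, 3 with siPIK3R3 and 26 with the siRNA combination. The share of all probes called under that scaling is not given here, and it put the median of all probes at -0.27 with the siRNA combination. With miR-181a there was 1 call with the authors' processed values, against a median of 8 arrays, or without the combination arrays, where MAD2L1 lies at the threshold. The median of 8 arrays as the reference gave 1 call with the miRNA combination and 8 with siPIK3R3, and no background correction gave 3 with siPIK3R3. At 1.5-fold, a laxer rule, the calls numbered 12 with miR-181a, 4 with miR-181b, 6 with miR-32, 1 with miR-455, 9 with siPIK3R1, 18 with siPIK3R3, 10 with the miRNA combination and 27 with the siRNA combination. With miR-181b, miR-455, siPIK3R1 and the miRNA combination, smaller shares of the members than of all probes were called, both higher and lower. Larger shares of the members were called higher with miR-181a and miR-32, and lower with siPIK3R3 and the siRNA combination. Signal over background limits the dim BIRC5 probe, which was not detected on 3 arrays.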
